A study of Arabidopsis thaliana with 14 samples.

Results

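Of 22746 probe sets on the Affymetrix ATH1 array, 102 were high early and stayed high when Arabidopsis thaliana rosettes were kept in darkness past the end of the night. A probe set is a group of oligonucleotides that reads 1 transcript, or a few related ones, and its level is given in log2 units, in which 1 unit is a 2-fold difference. The 102 members were chosen by their values. Each lay at least 1 log2 unit above the mean of the 3 end of night arrays on the 2 h array, and at least 1.5 units above it in the means at 4 h, 8 h, 24 h and 48 h. In all, 112 probe sets, 0.492% of those tested, met these cuts. Of these, 10 were set aside by name, among them IVD, MCCA, ATL8 and AKINBETA1. Of the 102, 36 match exactly 1 gene in the array annotation used here and stand for 35 genes, since AT2G30600 has a pair of probe sets. A further 2 match several genes and 64 match none, and these are counted without a gene name.

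All plants were wild type, of the Columbia-0 accession, 5 to 6 weeks old, vegetative and last grown in a 14 h photoperiod. Each sample held 3 whole rosettes frozen in the dark. The end of the night had 3 arrays, lettered A to C. Extended darkness of 4 h and 8 h had 2 arrays each (A, B), as had 24 h and 48 h (B, C). Single arrays, with no letter, came from plants taken 2 h before the night was due to end and from plants 2 h and 6 h past that point. The hours from 2 to 8 fell in what would have been day, whereas 24 h and 48 h came round to the hour at which the night normally ended. Clock time and length of darkness therefore change together between 8 h and 24 h. The same holds between any 2 of the times from 2 h before the end of the night to 8 h. No plants in the light were sampled at these hours, so the 2 cannot be told apart there. The labels do not say how samples of 1 time were kept apart beyond the rosettes they held, so the p-values measure only the spread between these samples, which may be technical.

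Plants store part of the carbon fixed by day as starch in the chloroplast and break it down at night to feed respiration and growth. The rate of breakdown is set so that starch lasts to about dawn, and when dawn does not come sugars run short. The kinase SnRK1, which is held back by sugar phosphates such as trehalose 6-phosphate, is then active, and cells turn to amino acids and lipids as fuels for respiration.

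The 14 arrays had median levels from 6.62 to 6.77 log2 units, close together because the authors' normalization sets them alike. The 25S rRNA control probe set read 8.98 on the 48 h B array against 11.05 to 13.78 on the other 13. At 48 h, members were higher on B than on C in 56 of 102 cases, and the same was true of 55.2% of all probe sets. Of 14 markers of leaf, root, guard cell, phloem, flower, seed and pollen, only PYK10, a root beta-glucosidase, had a probe set with 1 gene. It read 7.65 to 9.48 log2 units, with the lowest level on 8 h B and the highest on 8 h A, and did not pass the test against the end of the night at any replicated time (limma adjusted p from 0.663 to 0.863). The labelled tissue was therefore not checked against leaf markers. In whole rosettes fewer cells of a type and less RNA per cell cannot be told apart.

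The members' median course was steep up to 4 h and changed less after it. The median lay 1.47 log2 units above the end of the night mean at 2 h, 2.67 at 4 h, 2.94 at 6 h, 2.82 at 8 h, 2.62 at 24 h and 2.83 at 48 h. The values at 2, 4, 8, 24 and 48 h chose the members and are a description. At 2 h the differences ran from 1.01 to 4.43, and 21 members, 5 of them named, lay at least 2 units up. On every one of the 102, all 10 arrays from 2 h onward lay above all 3 end of night arrays; the cuts largely set this, and it held for 8.38% of all probe sets. At the end of the night the members' levels ran from 4.56 to 11.99 with a median of 8.17, against a median of 6.73 over all probe sets.

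**Figure D1:**
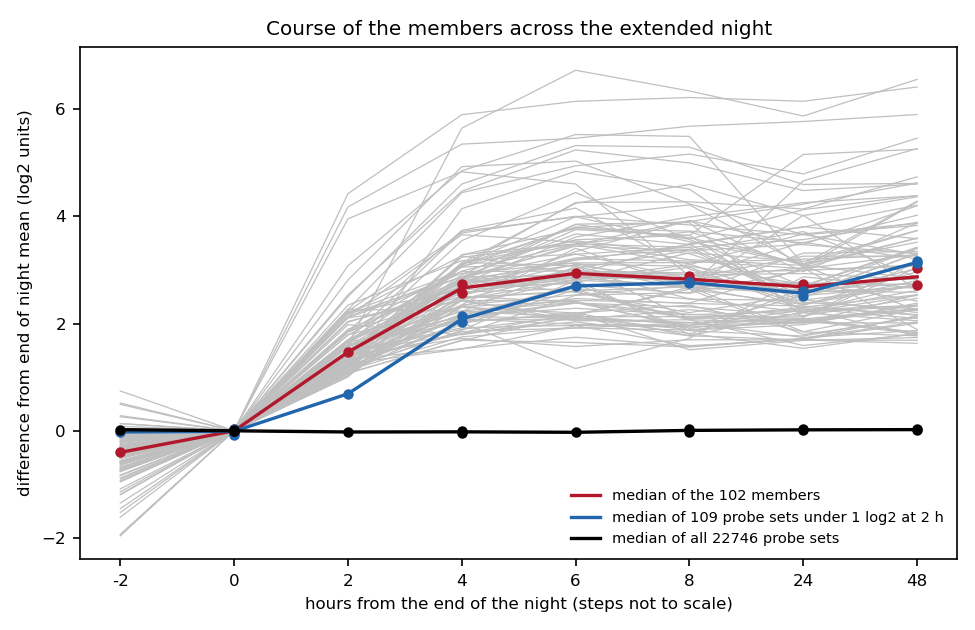
The y axis gives the difference from the end of night mean in log2 units and the x axis the hours from the end of the night, with steps not to scale. Grey lines are the 102 members (means per time), points are medians on single arrays and the coloured lines join the mean of these medians at each time. The members' median is 1.47 on the 2 h array and 2.58 to 3.03 on the arrays from 4 h to 48 h, while the median of all probe sets stays near 0.

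The highest line in that plot through 2 h, 4 h and 24 h belongs to the probe set 252415_at, which has no gene in the annotation used here and was singled out after its values were seen. It read 5.43 log2 units 2 h before dawn was due, 7.87, 7.06 and 7.17 at the night's end, 11.79 at 2 h, 13.24 and 13.29 at 4 h, 13.51 at 6 h, 13.57 and 13.60 at 8 h, 13.52 and 13.51 at 24 h and 13.87 and 13.69 at 48 h. The level at 2 h was already far above the 3 end of night arrays, and the later arrays lay near the highest level of any probe set on an array, 14.1 to 14.4. Between 8 h and 4 h, 24 h and 8 h, and 48 h and 24 h its differences were 0.32, -0.07 and 0.27, none called by limma (adjusted p = 0.662, 0.935 and 0.682).

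Whether the rise also shows on arrays that did not choose the members was asked with the 6 h array set against the array taken 2 h before the end of the night (the pre-dawn array). Neither entered the cuts, although 6 h lies between times that did. The 2 arrays differ in clock time as well as in hours of darkness. All 102 members were higher at 6 h and all were at least 2-fold higher, against 6.44% of all probe sets. The median difference was 3.49 log2 units (range 1.40 to 8.08), beside -0.04 over all probe sets. In the limma fit of all 14 arrays, 99 of 102 passed an adjusted p of 0.05 and none was called lower. Of all probe sets, 6.23% were called higher and 8.67% lower. At an unadjusted p under 0.05 it was 102 and 0 members, a count not made over all probe sets. Each of the 2 times has 1 array, which the fit assumes to vary like the replicated times.

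The members also held most of the top of that comparison. Of the 50 probe sets with the largest rise from 2 h before the end of the night to 6 h, 31 were members, 7 were among the 10 set aside by name and 11 were among the 109 that met the later cuts but lay under 1 log2 unit at 2 h. Those 109 slower probe sets were called higher in 105 cases with a median of 2.76 log2 units. The 81 probe sets that met the 2 h cut but missed at least 1 later one were called higher in 57 cases, with a median of 1.97.

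Among the named members, all 36 probe sets rose between these arrays and 35 were called. AT2G32150, a HAD-like hydrolase, rose by 4.94 ± 0.16 log2 units (SE; 30.6-fold; limma adjusted p = 3.14e-06). AT1G62510, of the lipid-transfer protein family, rose by 4.50 ± 0.39 (22.6-fold, limma adjusted p = 0.000171). ALDH7B4, an aldehyde dehydrogenase of the antiquitin family, rose by 4.41 ± 0.24 (21.3-fold, limma adjusted p = 1.29e-05). The alpha/beta hydrolase AT1G73480 rose by 4.37 ± 0.20, AT4G27450 by 4.32 ± 0.18, AT3G07350 by 4.20 ± 0.25 and the salt induced serine rich gene SIS by 4.05 ± 0.25. The smallest called rise was that of AT3G15450, at 2.16 ± 0.18 (4.48-fold, limma adjusted p = 0.000118). AT3G51110, a homologue of the splicing factor Crooked neck, differed by 1.83 ± 0.63 and was not called (limma adjusted p = 0.0863). Its end of night arrays were far apart, at 6.03, 5.46 and 4.76, with 5.55 on the earlier array and 7.38 at 6 h.

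**Figure D2:**
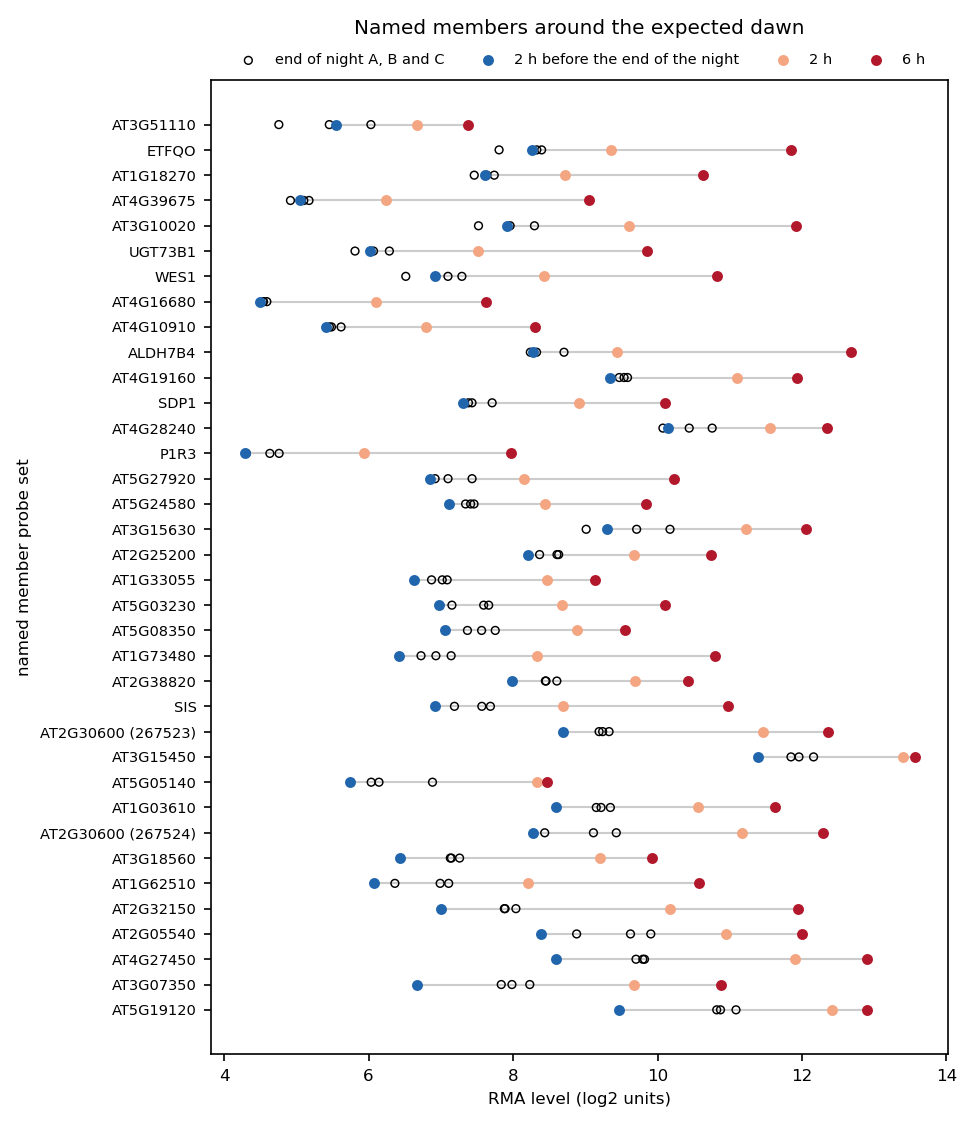
The x axis gives the RMA level in log2 units and each row is 1 named member probe set, ordered by its difference between the end of night mean and 2 h before. Open circles are the 3 end of night arrays, and filled circles are the single arrays from before the end of the night, 2 h and 6 h. In 26 of 36 rows the array taken 2 h before lies below all 3 end of night arrays, and in all 36 rows the 6 h array lies to the right of the 2 h array.

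Most members lay lower 2 h before the end of the night than at its end. This was looked at after the values were seen, and it shares the end of night arrays with the cuts. The earlier array lay below all 3 end of night arrays for 75 of 102 members (73.5%) and above all 3 for 1. Over all probe sets these shares were 22.0% and 29.4%. It was below all 3 for 29.4% of the 109 slower probe sets and for 70.4% of the 81 that were high at 2 h but not at every later time, so the pattern also held in the latter. The members' median difference between the earlier array and the end of night mean was -0.40 log2 units, and 11 of 102 lay at least 1 unit below, as did 53 of all 22746.

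Single genes seldom passed the test in this comparison. Of the members, 1 was called higher at the end of the night and 0 lower by limma, against 0.00879% and 0.0% of all probe sets. At an unadjusted p under 0.05 the counts were 36 and 0, or 35.3% of the members against 1.81% of all probe sets in the upward direction. The called gene was AT5G19120, of the aspartyl protease family, which read 9.47 log2 units 2 h before dawn was due and 11.09, 10.87 and 10.82 at the end. The rise was 1.45 ± 0.15 (limma adjusted p = 0.039), and the call was lost in 10 of 16 alternatives (adjusted p from 0.0165 to 0.14). AT4G27450 differed by 1.18 ± 0.15 (limma adjusted p = 0.0592), AT2G32150 by 0.93 ± 0.13 (0.0966) and AT3G07350 by 1.35 ± 0.21 (0.128). None of these 3 was called, although AT4G27450 was with trend and robust settings (adjusted p = 0.033) and without both 48 h arrays (0.0424). In each of the 3 the earlier array lay below all 3 end of night arrays. The 1 call became 3 without end of night A, 48 h B or 48 h C, and 0 without end of night B or any of the 4 h, 8 h or 24 h arrays.

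The members differed in how much of their rise was in place at 2 h. The 2 h difference was 48.5% of the largest difference at any time in the median member, with a range from 20.5% to 99.9%. Among named members it was highest in AT5G05140 (93.8%), AT3G15450 (81.5%), AT5G19120 (74.0%) and AT3G18560 (73.7%). It was lowest in ALDH7B4 (21.6%), AT1G62510 (26.5%), AT4G39675 (29.3%), AT5G27920 (32.0%) and ETFQO (32.2%). The 2 h cut of 1 log2 unit sets a floor under this share. That floor is higher where the largest difference is small, as in AT3G15450 (1.72 log2 units) against ALDH7B4 (4.74). The order by share is therefore partly set by the cuts and is a description. The largest difference from the end of the night fell at 4 h in 8 members, at 6 h in 31, at 8 h in 13, at 24 h in 7 and at 48 h in 43. These times are a description. The 6 h value is from 1 array and the others are means of 2. Between successive replicated later times 81 of 102 members had no limma call. At least 1 call was found in 20.6% of members, against 9.62% of all probe sets. With the replicate letter as a block these shares were 45.1% and 22.8%. On the single 6 h array 57 of 102 members lay above both the 4 h and the 8 h mean (55.9%), as did 28.1% of all probe sets. Below both means lay 6 members (5.88%), against 32.8% of all probe sets.

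**Figure D3:**
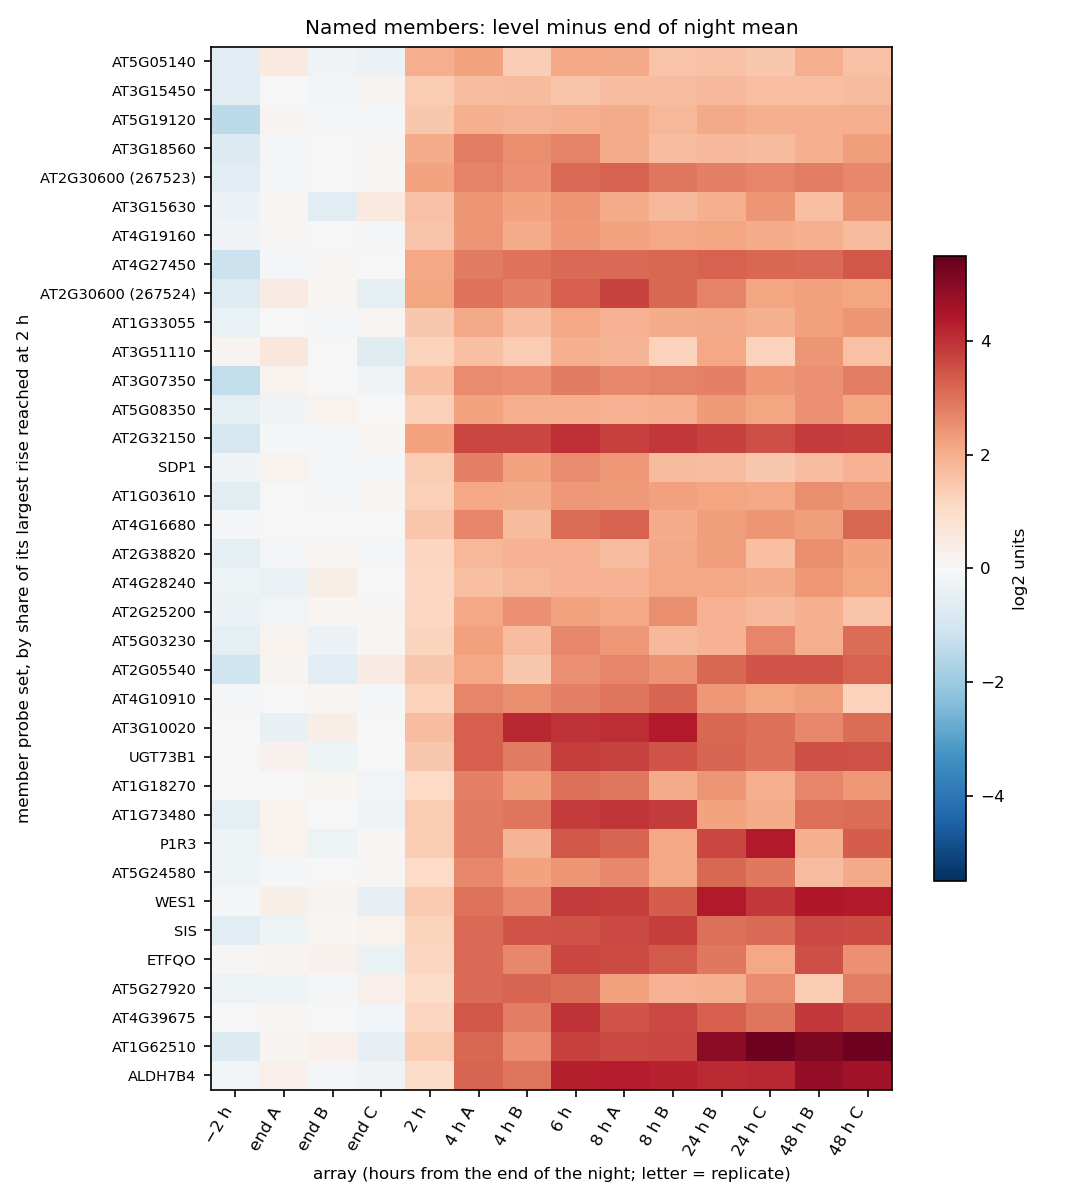
Rows are the 36 named member probe sets and columns the 14 arrays; colour gives the level minus the end of night mean in log2 units. Rows are ordered by the share of the largest rise that was reached at 2 h, from AT5G05140 (93.8%) at the top to ALDH7B4 (21.6%) at the bottom. The cuts partly set this order, since the 2 h cut puts a higher floor under the share where the largest rise is small. AT3G15450 and AT5G19120, near the top, change little after 4 h. Toward the bottom, ALDH7B4 is darkest at 48 h and AT1G62510 is darkest on all 24 h and 48 h arrays.

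The enzymes among the members make up 1 group. ETFQO passes electrons from the oxidation of amino acids to ubiquinone in the mitochondrial membrane. It read 8.26 log2 units 2 h before dawn was due, 8.33, 8.40 and 7.81 at the night's end, 9.36 at 2 h, 11.27 and 10.84 at 4 h, 11.85 at 6 h, 11.77 and 11.55 at 8 h, 11.07 and 10.30 at 24 h, and 11.71 and 10.71 at 48 h. All arrays from 2 h on lay above the 3 end of night arrays, and the B array was higher than C at 24 h and 48 h. It rose by 3.59 ± 0.51 from the pre-dawn array to 6 h (12.0-fold, limma adjusted p = 0.00195).

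ALDH7B4 oxidises aldehydes, and its family is known for a part in lysine breakdown in animals. Its levels were 8.27 log2 units 2 h before dawn was due, 8.71, 8.33 and 8.24 at the night's end, 9.45 at 2 h, 11.63 and 11.39 at 4 h, 12.69 at 6 h, 12.73 and 12.67 at 8 h, 12.55 and 12.58 at 24 h, and 13.27 and 13.06 at 48 h. The gene stood 1.02 log2 units up at 2 h, 3.08 at 4 h and 4.74 at 48 h, so its 48 h mean was 26.7-fold above the end of the night. Levels at 6 h, 8 h and 24 h were close together, and both 48 h arrays lay above them.

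SDP1, a lipase that releases fatty acids from triacylglycerol, read 7.30 log2 units 2 h before dawn was due, 7.71, 7.43 and 7.38 at the night's end, 8.91 at 2 h, 10.27 and 9.71 at 4 h, 10.11 at 6 h, 9.91 and 9.24 at 8 h, 9.20 and 9.00 at 24 h, and 9.23 and 9.40 at 48 h. Its level was highest on 4 h A and lower from 8 h B onward, while staying above the end of the night. Its rise from the pre-dawn array to 6 h was 2.81 ± 0.35 (6.99-fold, limma adjusted p = 0.00096).

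AT1G73480 had the largest change between successive later times among the named members. It read 6.42 log2 units 2 h before dawn was due, 7.14, 6.93 and 6.73 at the night's end, 8.33 at 2 h, 9.80 and 9.89 at 4 h, 10.79 at 6 h, 10.87 and 10.77 at 8 h, 9.13 and 8.97 at 24 h, and 9.97 and 9.99 at 48 h. The replicates of each time past the end of the night lay close together. Levels were high at 6 h and 8 h, lower at 24 h and between these at 48 h.

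WES1, a GH3 enzyme that joins auxin to amino acids, and UGT73B1, a glucosyltransferase, both lay 1.46 log2 units above the end of the night at 2 h. WES1 read 6.92 log2 units 2 h before dawn was due, 7.29, 7.10 and 6.51 at the night's end, 8.42 at 2 h, 9.98 and 9.61 at 4 h, 10.82 at 6 h, 10.78 and 10.31 at 8 h, 11.32 and 10.87 at 24 h, and 11.38 and 11.34 at 48 h. UGT73B1 read 6.02 log2 units 2 h before dawn was due, 6.29, 5.81 and 6.07 at the night's end, 7.52 at 2 h, 9.33 and 8.91 at 4 h, 9.86 at 6 h, 9.78 and 9.54 at 8 h, 9.25 and 9.09 at 24 h, and 9.60 and 9.55 at 48 h. WES1 was highest at 24 h and 48 h, whereas the highest arrays of UGT73B1 were 6 h and 8 h A. AT1G18270, of the class II ketose-bisphosphate aldolase family, was 2.53 log2 units above the end of the night at 4 h, 3.02 at 6 h and 2.53 at 48 h.

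Members linked to the control of proteins and transcription form another group. AT2G30600, a BTB/POZ domain protein, was read by 2 member probe sets. 267523_at read 8.69 log2 units 2 h before dawn was due, 9.19, 9.24 and 9.33 at the night's end, 11.45 at 2 h, 12.00 and 11.76 at 4 h, 12.36 at 6 h, 12.48 and 12.17 at 8 h, 12.03 and 11.95 at 24 h, and 12.07 and 11.91 at 48 h. 267524_at read 8.28 log2 units 2 h before dawn was due, 9.43, 9.11 and 8.44 at the night's end, 11.17 at 2 h, 11.98 and 11.75 at 4 h, 12.29 at 6 h, 12.70 and 12.13 at 8 h, 11.73 and 11.15 at 24 h, and 11.25 and 11.15 at 48 h. Both showed the rise and their differences from the end of the night stayed within 0.63 units of each other at each time. In the second the end of night arrays were wider apart, and all its 24 h and 48 h arrays lay below its 4 h arrays.

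The F-box protein AT5G27920 entered by the smallest margin at 2 h, 1.01 log2 units. It read 6.85 log2 units 2 h before dawn was due, 6.92, 7.10 and 7.43 at the night's end, 8.16 at 2 h, 10.25 and 10.34 at 4 h, 10.23 at 6 h, 9.42 and 9.07 at 8 h, 9.12 and 9.74 at 24 h, and 8.54 and 9.95 at 48 h. The 4 h and 6 h arrays were the highest, and at 48 h B lay well below C. AT5G05140, of the TFIIS-type elongation factor family, read 5.75 log2 units 2 h before dawn was due, 6.88, 6.14 and 6.04 at the night's end, 8.34 at 2 h, 8.58 and 7.72 at 4 h, 8.47 at 6 h, 8.42 and 7.92 at 8 h, 7.97 and 7.82 at 24 h, and 8.37 and 7.98 at 48 h. Of the later arrays, 4 h A, 6 h, 8 h A and 48 h B lay above its 2 h level and the others below it.

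AT3G15450 and AT4G27450 belong to the aluminium-induced family with YGL and LRDR motifs, and the former is a common marker of sugar starvation. AT3G15450 read 11.40 log2 units 2 h before dawn was due, 11.96, 11.85 and 12.16 at the night's end, 13.39 at 2 h, 13.70 and 13.73 at 4 h, 13.56 at 6 h, 13.71 and 13.67 at 8 h, 13.75 and 13.62 at 24 h, and 13.63 and 13.73 at 48 h. It was 2.65-fold above the end of the night at 2 h and 3.22-fold at 48 h. From 4 h on it read 13.56 to 13.75, while the highest level of any probe set on an array was 14.1 to 14.4; whether this nearness to the top of the range narrows its later values was not tested. AT4G27450 read 8.59 log2 units 2 h before dawn was due, 9.70, 9.82 and 9.80 at the night's end, 11.90 at 2 h, 12.64 and 12.78 at 4 h, 12.91 at 6 h, 12.88 and 12.95 at 8 h, 13.04 and 12.92 at 24 h, and 12.90 and 13.21 at 48 h. It was 4.37-fold up at 2 h and 9.72-fold at 48 h.

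The hydrolase AT2G32150 had the largest 2 h difference among named members, 2.23 log2 units. It read 7.00 log2 units 2 h before dawn was due, 7.89, 7.88 and 8.04 at the night's end, 10.17 at 2 h, 11.63 and 11.63 at 4 h, 11.94 at 6 h, 11.72 and 11.84 at 8 h, 11.69 and 11.50 at 24 h, and 11.78 and 11.76 at 48 h. From 4 h on its arrays stayed between 11.50 and 11.94. AT5G19120 behaved in the same way at a smaller size, 1.49 units up at 2 h and 1.92 to 2.02 from 4 h to 48 h.

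Genes with known links to stress were also among the members. AT3G10020, which is known to be induced by low oxygen, read 7.91 log2 units 2 h before dawn was due, 7.52, 8.30 and 7.96 at the night's end, 9.61 at 2 h, 11.22 and 12.07 at 4 h, 11.92 at 6 h, 12.00 and 12.29 at 8 h, 11.07 and 10.97 at 24 h, and 10.55 and 10.98 at 48 h. It was 18.6-fold above the end of the night at 8 h and 7.17-fold at 48 h. AT1G33055, also known from low oxygen, stayed between 1.89 and 2.35 units up from 4 h to 48 h. SIS read 6.92 log2 units 2 h before dawn was due, 7.19, 7.57 and 7.69 at the night's end, 8.69 at 2 h, 10.60 and 10.94 at 4 h, 10.97 at 6 h, 11.10 and 11.29 at 8 h, 10.52 and 10.60 at 24 h, and 11.10 and 11.05 at 48 h, highest at 8 h and at 48 h. AT4G28240, of the wound-responsive family, was 1.13 units up at 2 h and 2.28 at 48 h. The glycine-rich protein gene AT2G05540 was 1.48 units up at 2 h, 1.81 at 4 h and 3.35 at 48 h.

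AT1G62510 was the named member with the largest difference at any time. It read 6.08 log2 units 2 h before dawn was due, 6.99, 7.11 and 6.36 at the night's end, 8.21 at 2 h, 10.00 and 9.33 at 4 h, 10.58 at 6 h, 10.44 and 10.49 at 8 h, 11.79 and 12.17 at 24 h, and 11.96 and 12.19 at 48 h. Its 24 h and 48 h arrays lay above all earlier ones, 35.7-fold and 38.2-fold above the end of the night, from 2.62-fold at 2 h.

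The remaining named members are less well described. AT3G18560 was 2.03 log2 units up at 2 h, 2.68 at 4 h and 1.77 at 24 h. P1R3 read 4.28 log2 units 2 h before dawn was due, 4.76, 4.31 and 4.63 at the night's end, 5.94 at 2 h, 7.41 and 6.43 at 4 h, 7.97 at 6 h, 7.75 and 6.70 at 8 h, 8.26 and 8.92 at 24 h, and 6.51 and 7.89 at 48 h, with a wide gap between its arrays at 4 h, 8 h and 48 h. AT5G24580, a protein with a heavy-metal-associated domain, read 7.11 log2 units 2 h before dawn was due, 7.34, 7.41 and 7.46 at the night's end, 8.44 at 2 h, 10.06 and 9.61 at 4 h, 9.84 at 6 h, 10.04 and 9.54 at 8 h, 10.57 and 10.31 at 24 h, and 9.08 and 9.51 at 48 h, highest at 24 h. The other named members include AT5G03230, of a family named for senescence regulators, and AT5G08350, a GRAM domain protein. With AT1G03610, AT2G25200, AT2G38820, AT3G07350, AT3G15630, AT4G10910, AT4G16680, AT4G19160 and AT4G39675 they were 1.14 to 1.67 units up at 2 h. At 48 h they were 1.77 to 3.73 units up, highest in AT4G39675.

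Changes after the rise were read between successive later times: 8 h against 4 h, 24 h against 8 h and 48 h against 24 h. The cuts set a floor at each of these times and not the difference between them. In the limma fit 21 of 102 members (20.6%) had at least 1 call among the 3 comparisons, against 9.62% of all probe sets and 46.8% of the 109 slower ones. With the replicate letter as a block 46 members (45.1%) had one, against 22.8% of all probe sets and 69.7% of the slower ones. Of the 36 named probe sets, 5 had a call without the block and 15 with it.

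Between 4 h and 8 h, 11 members rose and 2 fell (limma), against 1.66% and 2.18% of all probe sets. The members' median difference was 0.17 log2 units. With the replicate letter as a block 23 rose and 4 fell (4.61% and 6.2% of all probe sets). At an unadjusted p under 0.05 it was 28 and 5, again not counted over all probe sets. ALDH7B4 rose by 1.19 ± 0.17 (2.28-fold, limma adjusted p = 0.00599) and AT1G73480 by 0.97 ± 0.14 (limma adjusted p = 0.0075). AT3G18560 fell by 0.81 ± 0.16 (limma adjusted p = 0.0276), from 9.98 and 9.74 to 9.24 and 8.86. The call of ALDH7B4 was lost without 4 h B (adjusted p = 0.0525), that of AT1G73480 without 4 h A or 8 h A (0.0782 and 0.0506), and that of AT3G18560 in 7 of 18 alternatives. With the block WES1, ETFQO, UGT73B1 and SIS also rose (0.75, 0.60, 0.54 and 0.42; limma adjusted p = 0.0109, 0.0466, 0.0247 and 0.0338), and AT5G27920 fell by 1.05 (limma adjusted p = 0.0226). Without 4 h A, 4 h B, 8 h A, 8 h B, 24 h B or 24 h C the 11 rises became 1, 2, 4, 3, 7 and 7. The 2 falls became 0 or 1 without any of the end of night, 4 h, 8 h or 24 h arrays. Of the 109 slower probe sets, 35 rose and 0 fell over the same hours.

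Between 8 h and 24 h, which also differ in clock time, 2 members rose and 7 fell (limma), against 1.35% and 1.89% of all probe sets. The median difference was -0.08 log2 units, with 5 rises and 13 falls with the letter as a block (3.36% and 3.34% of all probe sets). At an unadjusted p under 0.05 there were 7 and 24, not counted over all probe sets. AT1G73480 fell by 1.77 ± 0.14 (3.41-fold, limma adjusted p = 0.00045), from 10.87 and 10.77 to 9.13 and 8.97, a call kept in all 18 alternatives run. AT1G62510 rose by 1.51 ± 0.28 (2.85-fold, limma adjusted p = 0.0227), from 10.44 and 10.49 to 11.79 and 12.17. That call was lost when any of the 8 h or 24 h arrays was left out (adjusted p from 0.0713 to 0.176). With the letter as a block P1R3, WES1 and AT3G51110 also rose (1.39, 0.91 and 0.75), and AT2G25200, SIS and AT3G10020 fell (by 0.60, 0.82 and 1.42). The 7 falls became 4 without end of night B, 3 without 4 h A, 4 h B, 8 h B or 24 h B, and 1 without 8 h A or 24 h C. The 2 rises became 1 without any of the 8 h or 24 h arrays.

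Between 24 h and 48 h, at the same clock time, 5 members rose and 1 fell (limma), against 2.48% and 2.55% of all probe sets. The median difference was 0.22 log2 units, and 75 of 102 lay above 0. With the letter as a block 17 rose and 3 fell (6.48% and 6.59% of all probe sets). At an unadjusted p under 0.05 the counts were 24 and 4, with none made over all probe sets. AT1G73480 rose again, by 0.93 ± 0.14 (1.91-fold, limma adjusted p = 0.00716), to 9.97 and 9.99, a call lost in 2 of 17 alternatives. AT5G24580 fell by 1.15 ± 0.22 (2.21-fold, limma adjusted p = 0.0188), from 10.57 and 10.31 to 9.08 and 9.51, a call lost in 4 of 17. With the block ALDH7B4, SIS and AT4G39675 rose (0.60, 0.51 and 0.62) and P1R3 fell by 1.39. The 5 rises became 2 without 4 h A, 4 h B or 48 h B, 1 without 24 h B, 0 without 24 h C and 9 without 48 h C. The 1 fall became 0 without 24 h B or 24 h C and 4 without 48 h C. Of the slower probe sets, 21 rose and 1 fell.

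**Figure D4:**
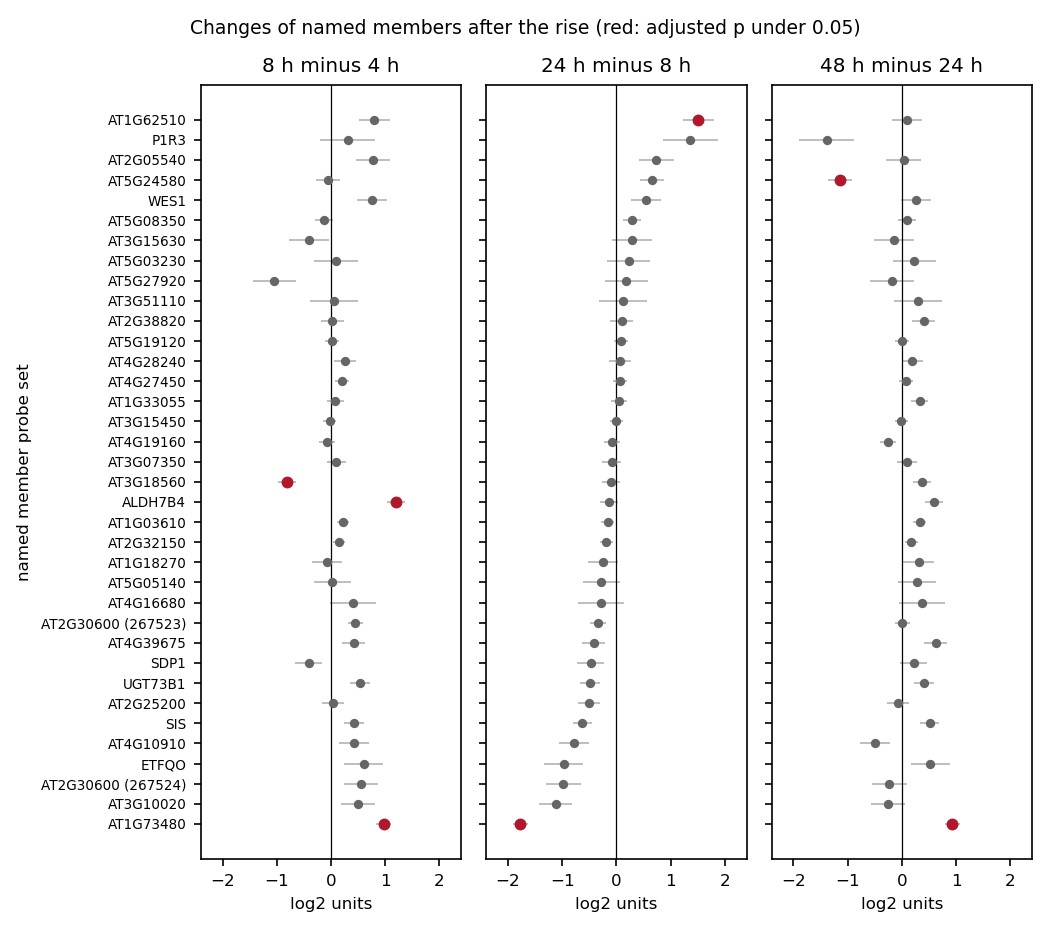
Each panel gives, for the 36 named member probe sets, the difference between 2 successive later times in log2 units, with bars of 1 limma standard error and red points for an adjusted p under 0.05. Values come from the fit without the replicate letter as a block. Most points lie near 0, while AT1G73480 is red in all 3 panels, at 0.97, -1.77 and 0.93.

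Genes of amino acid breakdown were found on both sides of the 2 h cut. Of 36 genes on a list of that pathway, 14 were measured; 1 is a member (ETFQO), 2 were set aside by name and 4 are among the 109 slower probe sets. Against the end of the night, limma called 10 of 14 higher and 0 lower at 4 h, with 7.49% of all probe sets called higher and 8.78% lower. It called 12 and 0 at 8 h (12.7% of all higher and 15.0% lower), 11 and 1 at 24 h (15.5% and 17.2%) and 12 and 1 at 48 h (20.5% and 20.3%). The median of the 14 was 1.94 log2 units at 4 h and 3.15 at 48 h. These counts and medians are a description, because the member, the 2 set aside and the 4 slower genes were sorted by these same differences. Of the other genes, ProDH2, ETFB and OAT were called higher at 4 h (1.68, 0.76 and 0.945 log2 units). BCKDH-E1A2, HML1, ETFA and D2HGDH were not called there. Among the slower genes, MGL, methionine gamma-lyase, rose by 3.79 ± 0.28 at 4 h and 6.11 ± 0.28 at 48 h. LKR/SDH, the first enzyme of lysine breakdown, rose by 2.20 ± 0.34 and 5.75 ± 0.34. The gene called lower was BCKDH-E1A2, at -0.86 at 24 h and -0.93 at 48 h (limma adjusted p = 0.019 and 0.0104). HML1 was not called at 4 h, 8 h, 24 h or 48 h. ETFB, a subunit of the electron carrier that feeds ETFQO, rose by 0.76 ± 0.13 at 4 h and 1.91 ± 0.13 at 48 h (limma adjusted p = 0.00319 and 2.42e-06). ETFA, the other subunit, differed by 0.64 ± 0.22 at 4 h without a call and rose by 1.18 ± 0.22 at 48 h (limma adjusted p = 0.0815 and 0.00169).

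Few regulators of the starvation response had a probe set with 1 gene. Of 7 SnRK1 subunit genes 3 were measured. AKINBETA1, which met the cuts and was set aside by name, rose by 1.93 ± 0.20 at 4 h. AKINBETA2 and AKINBETA3 differed by -0.23 ± 0.17 and 0.07 ± 0.13 there without a call (limma adjusted p = 0.47 and 0.847), and AKINBETA3 rose by 0.67 ± 0.13 at 48 h (limma adjusted p = 0.00264). Of 9 bZIP factors of the groups that act with SnRK1, 2 were measured, and bZIP53 rose by 1.01 ± 0.14 at 4 h (limma adjusted p = 0.00117). At 8 h, 24 h and 48 h bZIP53 was also called higher, by 0.44, 0.72 and 1.17. The other, bZIP44, differed by -0.14 ± 0.15 at 4 h (limma adjusted p = 0.679) and was not called at 8 h, 24 h or 48 h. From the pre-dawn array to 6 h bZIP53 and bZIP44 differed by 0.48 and -0.52. Of 18 FCS-like zinc finger genes, which bind SnRK1, 13 were measured, with 0 higher and 2 lower at 4 h (7.49% and 8.78% of all probe sets) and 2 higher and 4 lower at 48 h, where 20.5% and 20.3% of all probe sets were called. Of 17 common markers of darkness and sugar starvation, 3 were measured: the member AT3G15450, ATL8, and EXO, which differed by -0.84 ± 0.28 at 4 h (limma adjusted p = 0.0731) and rose by 1.08 ± 0.28 at 48 h (limma adjusted p = 0.0111). Of 10 clock genes only GI was measured, and it rose by 0.72 ± 0.20 at 4 h, 3.64 ± 0.20 at 8 h, 2.09 ± 0.20 at 24 h and 3.40 ± 0.20 at 48 h. No gene of the class II trehalose phosphate synthase and KMD F-box lists had a probe set with 1 gene.

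The border of the set is crowded. Within 0.1 log2 units of a cut lay 14 members inside and 22 probe sets outside, and within 0.25 units 34 and 73. Just inside were AT5G27920 (1.01 at 2 h), ALDH7B4 (1.02 at 2 h) and AT3G51110 (1.53 at 4 h). Just outside were AT2G01100 (1.499 at 4 h), AT2G15960 (0.99 at 2 h) and AT2G27830 (0.98 at 2 h).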

How the data were processed

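Whole rosettes were measured on 14 ATH1 arrays at 8 time points. The deposited values are log2 levels per probe set, which the authors made by robust multi-array average (RMA), per the submitters' processing notes; which program ran it is not stated in those notes, and array number limits the precision. Column names gave each array's sample. Of 22810 probe sets, 64 controls were left out. The array annotation gave 13513 of the rest exactly 1 gene, 503 several and 8730 none; 13436 of those with 1 gene were found in RefSeq's TAIR10.1 gene table, which gave the symbols.

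All comparisons came from 1 limma 3.58.1 fit (R 4.3.3; lmFit and eBayes, two-sided) of the 14 arrays with time as a factor, adjusted by Benjamini-Hochberg over 22746 probe sets and called at an adjusted p under 0.05. The fit had 6 residual and 3.25 prior degrees of freedom, with a median standard deviation of 0.165 log2 units. Errors after ± are its standard errors. The fit was run on simulated data with noise drawn independently for each array. That run could not test the fit under the shared deviations by replicate letter described below. Tables were made with pandas 2.3.3 and numpy 2.4.6 under Python 3.11.15, plots with matplotlib 3.10.9.

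The members and the 15 lists of 122 genes, of which 37 in 7 lists were measured, were chosen with earlier results of these data known. The lists also hold some of the members and some of the genes set aside by name. The naming rule allowed every member with 1 gene to be named when there were at most 40, so all were. Promoter sequences were not used here.

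Replicate letters were taken to pair samples: deviations from time means correlated at 0.17 to 0.58 across probe sets in all 16 pairs of arrays with 1 letter, and at -0.58 to 0.365 in 32 pairs with different letters. With 2 arrays a time these values are not independent. The main fit did not use this pairing, which entered only as the block alternative. Alternatives were median centring, a second quantile normalization, leaving out the dimmest 33.3% of probe sets, trend and robust settings, only the times compared, the letter as a block in the 11 lettered arrays, stricter thresholds, shifted cuts and leaving out arrays.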

Additional observations from a re-analysis of the deposited data

How the results depend on the processing

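For the rise from 2 h before the end of the night to 6 h, 98 to 100 members were called under the alternatives run. With 1 lettered array left out it was 99 to 100, and all 36 named probe sets kept their side of the threshold. The single arrays that make this comparison were never left out, so these runs changed only the estimated spread. The later comparisons did lose arrays of their own, so the ranges are not alike. The number of members was 175 with the cuts 0.25 log2 units lower, 68 with them 0.25 higher and 98 to 109 without 1 array. The later counts depended on the settings. With the replicate letter as a block, 8 h against 4 h gave 23 rises and 4 falls, 24 h against 8 h gave 5 and 13, and 48 h against 24 h gave 17 and 3. At an adjusted p under 0.01 these were 4 and 0, 1 and 3, and 1 and 0. With at least a 2-fold change required, the rises at 8 h were 5 and the falls 0, the falls at 24 h 4 and the rises at 48 h 0. The falls at 8 h numbered 1 with trend and robust settings, with median centring or with only the 2 times compared, and this last setting gave 0 rises and 0 falls at 48 h. Without 1 array, rises and falls ranged over 1 to 12 and 0 to 3 at 8 h, 1 to 2 and 1 to 10 at 24 h, and 0 to 9 and 0 to 4 at 48 h. The 1 call in the last hours of the night, before its end, became 0 with a second quantile normalization, without the dimmest probe sets or at an adjusted p under 0.01, 6 with trend and robust settings, 3 without both 48 h arrays, and 0 to 3 without 1 array. Alternatives for this last comparison were chosen after seeing the data. Apart from fewer arrays or probe sets where they were left out, the cause was not tested. The block could not be used for the 3 single arrays, which carry no letter.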
